A study of Danio rerio with 6 samples.

Results

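The genes described here are 7 immediate early genes of neuronal activity, chosen by their Ensembl identifiers: *atf3*, *nr4a1*, *fosab*, *fosaa*, *junba*, *egr1* and *npas4a*. All 7 were among the 25190 genes of the count table and among the 32264 genes of the FPKM table. RNA-Seq was run on 3 WT and 3 *pde6c* zebrafish samples at 5 dpf, named WR1 to WR3 and PR1 to PR3, and each sample pooled 3 retinas from 3 larvae. The *pde6c* larvae were homozygous for w59, a point mutation in the gene of the cone phosphodiesterase subunit, and came from heterozygous parents. The WT larvae came from WT siblings of those parents, so that parentage and genotype cannot be told apart. Larvae of both genotypes were screened by the optokinetic response, an eye movement that follows moving stripes, and were dark-adapted before the retinas were dissected.

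Immediate early genes are transcribed within minutes of a stimulus from factors that are already present in the cell, without the need for new protein. In neurons the stimulus is calcium entry, whose signals reach CREB, SRF partners and MEF2. The products of the genes are mostly transcription factors that then switch on later genes. The Fos and Atf3 proteins pair with Jun proteins on AP-1 sites. Egr1 is a zinc finger factor, Nr4a1 is an orphan nuclear receptor, and Npas4 is a basic helix-loop-helix factor induced by neuronal activity. Several of them, Atf3 above all, are also induced by stress and injury, so that the family is read in the retina both as a trace of activity and as a response to damage.

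Fragments counted on genes totalled between 18757605 and 22510222 per sample, and 3 counts were worth between 0.129 and 0.169 CPM (counts per TMM-scaled library size), below which a level was not read. This covers counting error only. The mutated gene, PDE6C in the names table (ENSDARG00000100397), had no count in any sample, and its span overlaps that of CEP55. In the FPKM table it stood at 445, 655 and 520 in WR1 to WR3 and at 60.1, 140.2 and 84.8 in PR1 to PR3, lower in each *pde6c* sample than in each WT sample. The summed level of the cone markers was 15092 to 16949 CPM in WT and 6254 to 8752 CPM in *pde6c*, where 5 of 9 tested markers fell and 1 rose. That of the rod markers was 2175 to 3119 CPM in WT and 1409 to 1976 CPM in *pde6c*, where 3 of 12 fell. By the same edgeR test, described below, 2.29% of all 17242 tested genes fell and 1.4% rose. Summed markers of ganglion and amacrine cells overlapped between genotypes, at 802 to 836 CPM in WT and 789 to 881 CPM in *pde6c* for ganglion cells and 1693 to 1875 CPM and 1815 to 2169 CPM for amacrine cells. Microglia markers summed to 11.9 to 21.0 CPM in WT and 14.7 to 29.9 CPM in *pde6c*, and pigment epithelium markers to 11.6 to 19.8 CPM and 11.5 to 17.3 CPM. Each result below is from whole retinas, whose counts alone cannot tell fewer cells of a type from less RNA per cell. The authors describe the cones as substantially degenerated at this age, and cite earlier work in which rod number was still comparable to WT. The part of these cell-type differences in the results was not tested.

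All 7 genes passed the filter on low counts, and 2 of them, *atf3* and *nr4a1*, rose in *pde6c* by edgeR's quasi-likelihood test at an adjusted *P*-value under 0.1. Of all 17242 genes tested, 3.69% were called, 1.4% as higher and 2.29% as lower. Besides these, *fosab* was higher in each *pde6c* sample than in each WT sample without passing the test. The other 4, *junba*, *npas4a*, *egr1* and *fosaa*, overlapped between genotypes. The normalised counts of 3 of the 7 genes thus did not overlap, all 3 higher in *pde6c*, where 16.9% of all tested genes did not overlap and 8.15% were higher and 8.75% lower without overlap. None of the 7 genes shares bases with another gene of the count table.

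**Figure D1:**
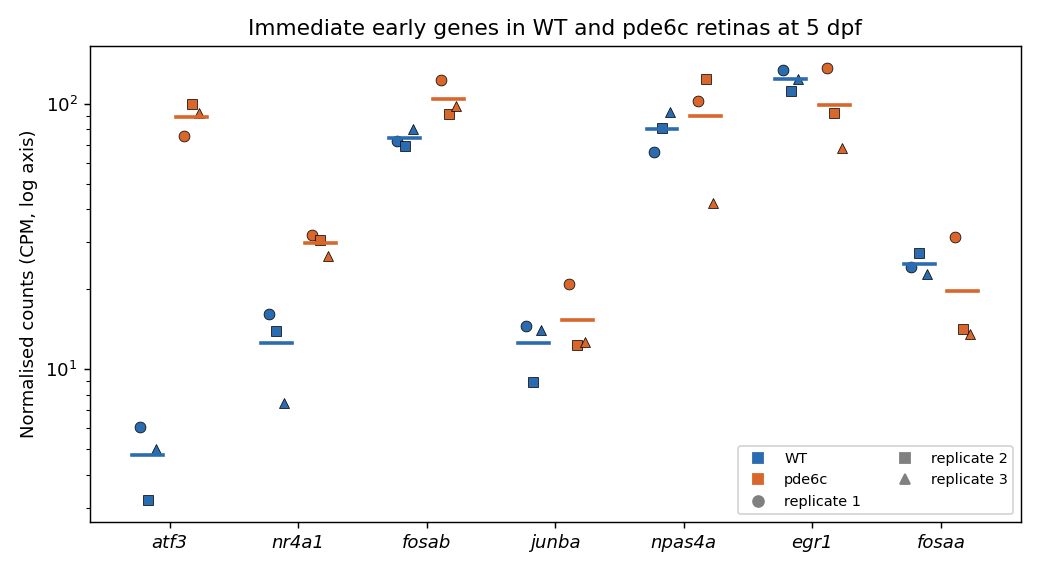
Normalised counts (CPM, log axis) of the 7 immediate early genes in the 3 WT and 3 *pde6c* samples, 1 point per sample with the replicate number as its shape and a bar at the mean of each genotype. The *atf3* points lie at 3.21 to 6.05 CPM in WT and 75.2 to 99.4 CPM in *pde6c*, whereas those of *egr1*, *fosaa*, *junba* and *npas4a* overlap.

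*atf3* (ENSDARG00000007823) encodes a stress-induced AP-1 partner, and lies on chromosome 20 of GRCz10 at 37891754 to 37897858 on the plus strand. Its counts were 137, 57 and 104 in WR1 to WR3 and 1753, 2123 and 1903 in PR1 to PR3. After scaling these were 6.05, 3.21 and 5.01 CPM in WT and 75.2, 99.4 and 92.5 CPM in *pde6c*. The lowest *pde6c* sample was thus far above the highest WT sample. The mean was 4.76 ± 1.44 CPM (SD, n = 3) in WT and 89.1 ± 12.4 CPM (SD, n = 3) in *pde6c*. The log2 fold change was 4.22 (SE 0.27, 95% interval 3.65 to 4.78), an 18.6-fold rise with an adjusted *P*-value of 2.03e-07 in edgeR. Among the 17242 genes tested, *atf3* ranked 3 by *P*-value and 19 by log2 fold change. Under the alternative tests, filters and left-out samples its log2 fold change stayed between 4.0 and 4.60, and the gene was called in each of them.

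The FPKM of *atf3*, a level per transcript length, was 3.91, 1.63 and 3.91 in WT and 54.9, 89 and 81.3 in *pde6c*. These values do not overlap either. limma on log2(FPKM + 1) gave a difference of 4.22 (SE 0.33) with an adjusted *P*-value of 0.000845, where 1.3% of 15782 genes were called.

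*nr4a1* (ENSDARG00000000796), the orphan nuclear receptor also known as Nur77 in mammals, lies on chromosome 23 at 32224792 to 32236279 on the minus strand. Its level was 16.1, 14.0 and 7.42 CPM in WR1 to WR3 and 32.0, 30.6 and 26.6 CPM in PR1 to PR3. The *pde6c* samples were close together and above all WT samples, and WR3 was low for its genotype. The mean was 12.5 ± 4.54 CPM (SD, n = 3) in WT and 29.8 ± 2.80 CPM (SD, n = 3) in *pde6c*. The log2 fold change was 1.25 (SE 0.31, 95% interval 0.60 to 1.91), a 2.38-fold rise with an adjusted *P*-value of 0.0386 in edgeR. The call was lost with some single samples left out. edgeR gave an adjusted *P*-value of 0.148 without WR3, 0.128 without PR1 and 0.113 without PR2, with log2 fold changes of 0.99, 1.21 and 1.23. It was kept without WR1, WR2 or PR3 (0.0382, 0.0811 and 0.0738 in edgeR) and in DESeq2 with all samples (0.00169). With any sample left out, fewer genes were called over all genes too. In FPKM, *nr4a1* stood at 5.58, 3.56 and 1.86 in WT and 9.39, 9.21 and 12 in *pde6c*. The direction was the same, but limma gave 1.33 (SE 0.38) with an adjusted *P*-value of 0.240 and no call.

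*fosab* (ENSDARG00000031683), a zebrafish copy of the AP-1 subunit gene *Fos*, lies on chromosome 20 at 46648591 to 46650720 on the minus strand. It was measured at 72.4, 69.2 and 80.5 CPM in WT and 123, 91.8 and 97.8 CPM in *pde6c*. The genotypes did not overlap, and PR1 was the highest sample. The mean was 74.1 ± 5.82 CPM (SD, n = 3) in WT and 104 ± 16.3 CPM (SD, n = 3) in *pde6c*. edgeR gave a log2 fold change of 0.49 (SE 0.18, 95% interval 0.12 to 0.86), or 1.40-fold, with a *P*-value of 0.0132 before and 0.218 after adjustment over all genes, so that the difference did not pass. In FPKM the same gene read 59.6, 71.3 and 84.3 in WT and 134, 119.6 and 83.5 in *pde6c*, and here PR3 fell below WR3.

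**Figure D2:**
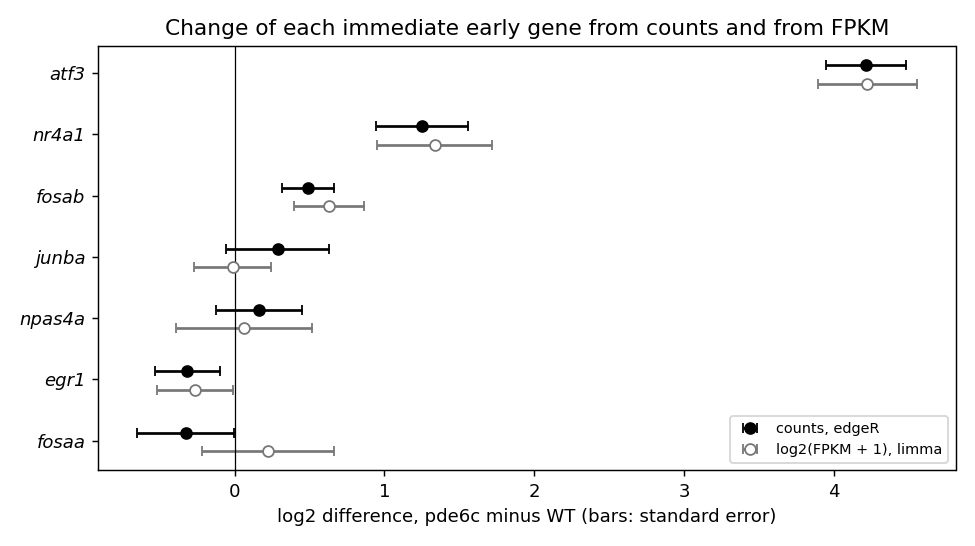
Log2 difference between *pde6c* and WT for each gene, from counts with edgeR (filled) and from log2(FPKM + 1) with limma (open), with bars of 1 standard error. *atf3* stands at 4.22 in both, *nr4a1* at 1.25 and 1.33, and *fosaa* and *junba* have different signs in the tables.

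The second *Fos* copy, *fosaa* (ENSDARG00000040135, chromosome 17, 50149929 to 50154935, minus strand), lay at 24.3, 27.3 and 22.9 CPM in WT and 31.5, 14.1 and 13.6 CPM in *pde6c*. PR1 was above all WT samples and the other two *pde6c* samples were below them. edgeR gave a log2 fold change of -0.33 (SE 0.32, 95% interval -1.01 to 0.36) with an adjusted *P*-value of 0.788. Its size depended on single samples, at -0.83 without PR1, -0.14 without PR2 and -0.11 without PR3, with no call in any of them. The tables differed for this gene. Its FPKM was 13.8, 4.07 and 5.67 in WT and 8.36, 10.8 and 6.21 in *pde6c*, and limma gave a difference of 0.22 (SE 0.44), opposite in sign to the counts, with an adjusted *P*-value of 0.916. WR2 had the highest CPM and the lowest FPKM of the WT samples. Fragments that fit more than 1 place were left out of the counts, and the cause of this difference was not tested.

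*junba* (ENSDARG00000074378, chromosome 1, 51098615 to 51100171, minus strand) encodes a Jun partner of the Fos proteins. It was present at 14.5, 8.95 and 14.1 CPM in WT and 20.9, 12.3 and 12.6 CPM in *pde6c*. Only PR1 exceeded the WT samples, and the other two *pde6c* samples lay within their range. Its log2 fold change was 0.29 (SE 0.34, 95% interval -0.44 to 1.01) with an adjusted *P*-value of 0.836 in edgeR. Without PR1 it was 0.0058 and without WR2 0.094. From FPKM it was -0.01 (limma, SE 0.26), so that neither table gave *junba* a direction beyond its error.

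*egr1* (ENSDARG00000037421, chromosome 14, 21035277 to 21039140, minus strand) encodes a zinc finger factor that responds to depolarisation and growth factors. Its samples were at 134, 112 and 124 CPM in WT and at 137, 92.3 and 68.4 CPM in *pde6c*. The highest and the lowest of all 6 values were both *pde6c* samples, PR1 and PR3. In edgeR the log2 fold change was -0.32 (SE 0.21, 95% interval -0.77 to 0.14) with an adjusted *P*-value of 0.638. It was negative under each alternative, between -0.61 and -0.10, and was never called.

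*npas4a* (ENSDARG00000055752, chromosome 14, 30296641 to 30302505, minus strand) has a mammalian counterpart that is induced by neuronal activity rather than by growth factors. It was measured at 65.8, 81.2 and 93.0 CPM in WT and 102, 124 and 42.4 CPM in *pde6c*. PR1 and PR2 were above every WT sample and PR3 was below all of them. The mean was 80.0 ± 13.7 CPM (SD, n = 3) in WT and 89.6 ± 42.4 CPM (SD, n = 3) in *pde6c*. The log2 fold change was 0.16 (SE 0.29, 95% interval -0.44 to 0.77) with an adjusted *P*-value of 0.897 in edgeR. Without PR2 it was -0.15 and without PR3 0.51, so that the sign turned on 1 sample.

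Levels of different genes were set side by side in FPKM. In WT the order of the mean FPKM was *egr1* at 82.0 ± 10.3 (SD, n = 3), *fosab* at 71.7 ± 12.3, *junba* at 27.8 ± 5.89, *npas4a* at 24.5 ± 6.46, *fosaa* at 7.85 ± 5.23, *nr4a1* at 3.67 ± 1.86 and *atf3* at 3.15 ± 1.32. Only the steps from *fosab* to *junba* and from *npas4a* to *fosaa* were free of overlap between samples. Of the other neighbours in the order, *egr1* was above *fosab* and *fosaa* above *nr4a1* within each WT sample. The remaining neighbours changed order between WT samples. In *pde6c* the order of the mean FPKM was *fosab* at 113 ± 26.2 (SD, n = 3), *atf3* at 75.1 ± 17.9, *egr1* at 70.12 ± 21.9, *npas4a* at 28.7 ± 16.6, *junba* at 27.7 ± 7.14, *nr4a1* at 10.2 ± 1.54 and *fosaa* at 8.45 ± 2.29. There the steps from *egr1* to *npas4a* and from *junba* to *nr4a1* were free of overlap. Of the other neighbours, *fosab* was above *atf3* within each *pde6c* sample, and the rest changed order between *pde6c* samples. *atf3* moved from rank 7 of 7 in WT to rank 2 in *pde6c*.

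The summed FPKM of the 7 genes was 208, 202 and 253 in WT and 366, 367 and 266 in *pde6c*, each *pde6c* sample above each WT sample. Without *atf3* the sums were 204, 199.9 and 249 in WT and 311, 278 and 185 in *pde6c*, which overlapped. *atf3* made up 1.88%, 0.811% and 1.55% of the sum in WT and 15.0%, 24.3% and 30.6% in *pde6c*. The share of *egr1* was 37.2% ± 0.639 (SD, n = 3) in WT and 20.8% ± 3.80 (SD, n = 3) in *pde6c*. As a share of a sum it moves with each gene of the sum, not with *atf3* alone. The part of *atf3* in its fall was not tested.

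**Figure D3:**
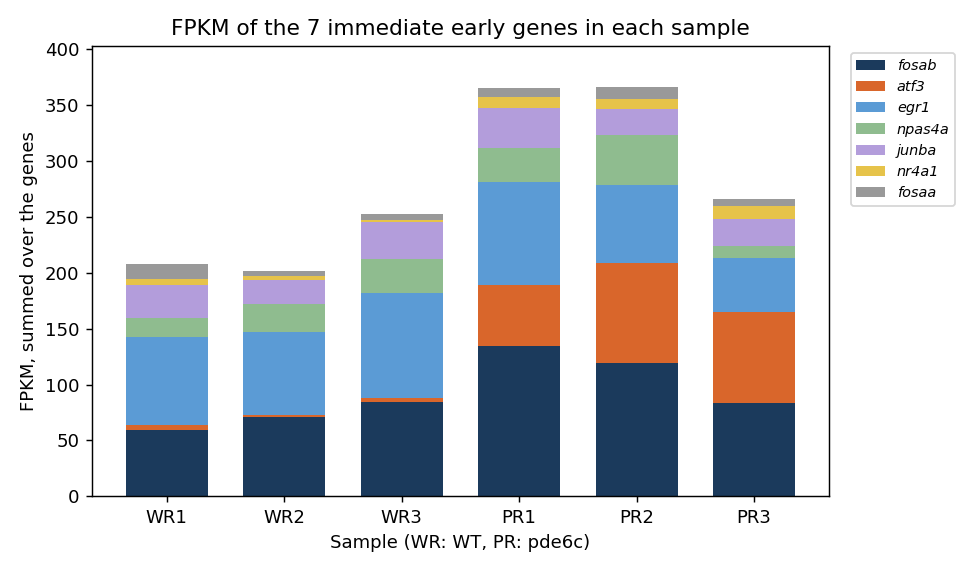
FPKM of the 7 genes stacked for each of the 6 samples, WR for WT and PR for *pde6c*. The *atf3* segment is 1.63 to 3.91 FPKM high in WT and 54.9 to 89 FPKM high in *pde6c*, and PR3 has the lowest total of the *pde6c* samples at 266 FPKM.

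Within *pde6c*, PR1 was the highest sample for 5 of the 7 genes and PR3 the lowest for 4 and the highest for 0. Within WT, WR1 was the highest for 4 genes and WR2 the lowest for 4. Over all 17242 tested genes PR1 was the highest *pde6c* sample in 31.4% and PR3 the lowest in 34.5%, and WR1 was the highest WT sample in 34.2% and WR2 the lowest in 36.3%. On the log2 CPM scale, PR1 lay above the *pde6c* mean by 0.79 for *fosaa*, 0.52 for *egr1*, 0.49 for *junba* and 0.25 for *fosab*, whereas PR3 lay at -0.94 for *npas4a*, -0.48 for *egr1* and -0.42 for *fosaa*. Within *pde6c* the highest sample was 1.2 times the lowest for *nr4a1*, 1.32 times for *atf3* and 1.33 times for *fosab*. Within WT it was 2.17, 1.89 and 1.16 times, so that *nr4a1* and *atf3* spread more in WT. The same ratio within *pde6c* was 2.93 for *npas4a*, 2.32 for *fosaa* and 2.00 for *egr1*, against 1.41, 1.19 and 1.2 within WT. For *junba* it was 1.70 within *pde6c* and 1.62 within WT. The ratios of all tested genes are not given here.

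**Figure D4:**
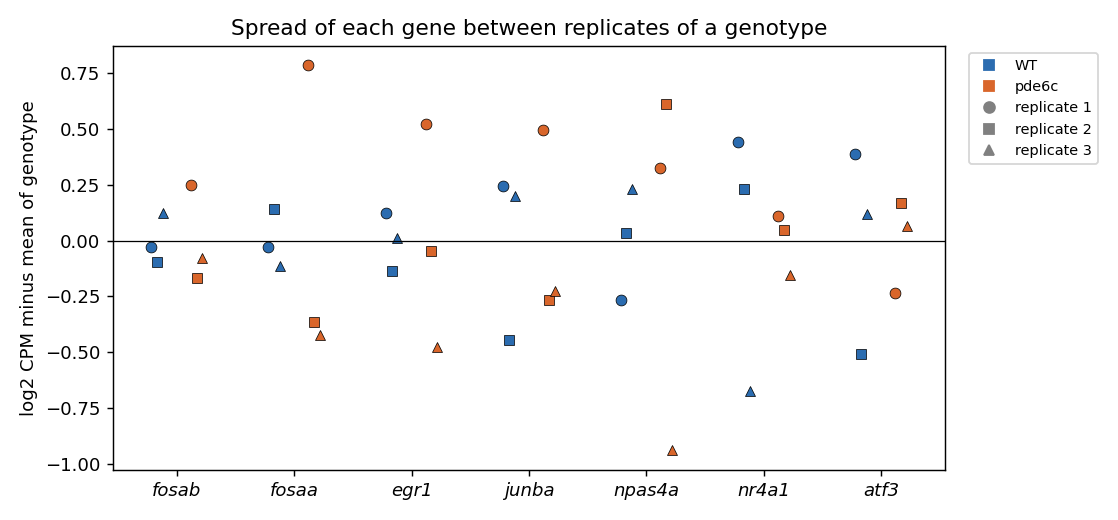
Deviation of each sample from the mean of its genotype on the log2 CPM scale for the 7 genes, coloured by genotype, with the replicate number as the shape. PR1 stands highest for *fosaa* at 0.79, and PR3 lowest for *npas4a* at -0.94.

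The other immediate early transcription factors were read from a list of the remaining AP-1, EGR, NR4A, KLF, MYC, IER and related genes. Of its 28 genes, 24 were tested, 3 rose and 0 fell (12.5% of those tested). Of all tested genes, 3.69% were called, 1.4% as higher. The median log2 fold change of the 24 was 0.38, where that of all tested genes was 0.00, and 21 of the 24 were positive. Their summed level was 407 to 467 CPM in WT and 532 to 602 CPM in *pde6c*. The 3 genes that rose are all AP-1 subunit genes, JUN of the Jun family and FOSL1 and FOSL2 of the Fos family. Their mean levels went from 8.63, 12.8 and 38.7 CPM in WT to 55.8, 40.8 and 75.9 CPM in *pde6c*. As these 3 are part of the summed level, that sum does not show a rise across the list.

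JUN in the names table (ENSDARG00000043531) encodes the AP-1 subunit c-Jun. It was at 6.98, 11.5 and 7.42 CPM in WT and 56.9, 59.5 and 51.0 CPM in *pde6c*, with no overlap. The log2 fold change was 2.70 (SE 0.26), a 6.48-fold rise with an adjusted *P*-value of 1.13e-05 in edgeR. FOSL1 (ENSDARG00000015355), a Fos-related subunit, was at 11.2, 14.0 and 13.3 CPM in WT and 41.2, 40.4 and 40.9 CPM in *pde6c*. It rose 3.18-fold (log2 1.67, SE 0.24) with an adjusted *P*-value of 0.000638 in edgeR. FOSL2 (ENSDARG00000040623), another Fos-related subunit, was at 45.7, 32.8 and 37.6 CPM in WT and 81.1, 84.0 and 62.6 CPM in *pde6c*. Its rise was smaller at 1.96-fold (log2 0.97, SE 0.20), with an adjusted *P*-value of 0.0128 in edgeR. None of the 3 overlapped between genotypes, and limma on FPKM called JUN and FOSL1 but not FOSL2 (adjusted *P*-values of 0.00138, 0.0539 and 0.180).

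The other AP-1 genes did not pass. JUNB (ENSDARG00000104773) had a log2 fold change of 1.58 from at most 2.75 CPM, FOSB 0.60 and JUND 0.32, with adjusted *P*-values of 0.503, 0.596 and 0.755 in edgeR. In the families of *nr4a1* and *egr1*, the log2 fold change was -0.76 and 0.35 for the 2 NR4A2 genes and 1.49 for EGR3, with adjusted *P*-values of 0.326, 0.784 and 0.528 in edgeR. The NR4A2 gene at -0.76 (ENSDARG00000017007) was at 24.4, 21.3 and 16.8 CPM in WT and 15.9, 12.3 and 8.84 CPM in *pde6c*. It was thus lower in *pde6c* without overlap, as were 8.75% of all tested genes. EGR3 ran from 0.796 to 13.5 CPM among the *pde6c* samples. Of the 4 genes of the list that were not tested, egr2a had no count and EGR2 at most 0.722 CPM, whereas egr4 and NR4A3 had no count and spans that overlap another gene. egr4 read 19.0, 14.4 and 32.2 FPKM in WT and 28.4, 31.7 and 19.3 FPKM in *pde6c*, which overlapped.

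**Figure D5:**
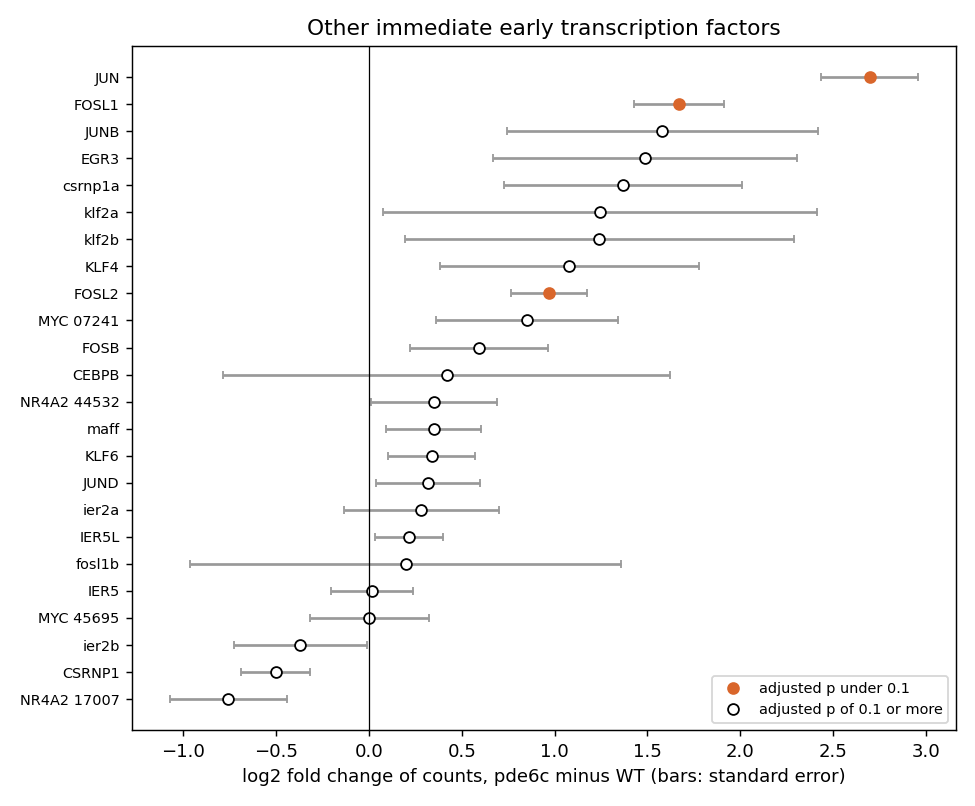
Log2 fold change of counts, *pde6c* minus WT, with bars of 1 standard error, for the 24 tested genes of the list of other immediate early transcription factors. Filled points mark the 3 genes called by edgeR, JUN at 2.70, FOSL1 at 1.67 and FOSL2 at 0.97, and 3 genes lie below 0.

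Genes of effectors and feedback regulators, among them synaptic proteins, phosphatases and inhibitors of signalling, mostly did not pass the test. Of 38 genes, 34 were tested, 2 rose and 0 fell (5.88% of those tested), and the median log2 fold change was 0.12. Over all tested genes the share called was 3.69%, and 1.4% were higher. SOCS3 (ENSDARG00000026611), a feedback inhibitor of cytokine signalling, was at 10.6, 9.01 and 7.71 CPM in WT and 23.3, 38.4 and 39.2 CPM in *pde6c*. It rose 3.70-fold (log2 1.89, SE 0.30) with an adjusted *P*-value of 0.00127 in edgeR. This call was lost in limma with no filter (adjusted *P*-value of 0.209). DUSP5 (ENSDARG00000019307), a phosphatase that switches off the ERK kinases, was at 19.5, 19.98 and 24.7 CPM in WT and 44.1, 46.9 and 37.0 CPM in *pde6c*. It rose 2.00-fold (log2 1.0, SE 0.23) with an adjusted *P*-value of 0.0247 in edgeR, a call lost without PR2. The activity-regulated neurotrophin gene BDNF had a log2 fold change of -0.05, the synaptic scaffold gene HOMER1 0.06, and the neuropeptide gene vgf -1.0, with adjusted *P*-values of 0.964, 0.955 and 0.119 in edgeR. Of the 14 refitted alternatives, 6 called vgf as lower, among them DESeq2, the replicate block and edgeR without WR3 or without PR1. GADD45B (ENSDARG00000027744) was called as higher in 2 of the 14. In the main fit its log2 fold change was 1.91, with an adjusted *P*-value of 0.189 in edgeR. It was at 2.83, 0.450 and 1.35 CPM in WT and 4.51, 4.54 and 8.50 CPM in *pde6c*, without overlap, as were 8.15% of all tested genes in that direction.

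Within the lists of transcription factors and effectors, the 5 most abundant genes by mean FPKM did not pass. SIK1, a kinase that feeds back on CREB coactivators, averaged 236 ± 63.7 FPKM (SD, n = 3) in WT and 276 ± 113 FPKM in *pde6c*, with an adjusted *P*-value of 0.711 in edgeR. BTG1 averaged 173 and 176 FPKM, crema 104 and 137 FPKM, and IER5 122 and 116 FPKM in WT and *pde6c* (adjusted *P*-values of 0.981, 0.664 and 0.990 in edgeR). BTG2, with 99.4 FPKM in WT and 90.3 FPKM in *pde6c*, had no count and a span that overlaps another gene, and was tested only by limma (adjusted *P*-value of 0.896).

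Of the upstream activators and partners, 26 of 27 genes were tested, 0 rose and 3 fell (11.5%), with a median log2 fold change of -0.04. The share called over all tested genes was 3.69%, with 2.29% lower. The 3 that fell are MEF2 genes, which encode calcium-regulated activators. MEF2A of the same family was not called (log2 fold change -0.35, adjusted *P*-value of 0.360 in edgeR), nor was MEF2D. mef2ab (ENSDARG00000057527) fell from 210, 297 and 233 CPM in WT to 49.8, 49.2 and 41.4 CPM in *pde6c* (5.27-fold lower, adjusted *P*-value of 1.12e-06 in edgeR). MEF2C (ENSDARG00000029764) was at 201, 322 and 154 CPM in WT and 100.02, 100.08 and 72.9 CPM in *pde6c*, and the other MEF2C gene (ENSDARG00000009418) at 519, 581 and 451 CPM and 311, 362 and 259.5 CPM (adjusted *P*-values of 0.0032 and 0.0152 in edgeR). limma on FPKM called mef2ab but neither MEF2C gene, with differences of -0.51 and -0.59 and adjusted *P*-values of 0.570 and 0.401. The FPKM of ENSDARG00000029764 overlapped, at 62.4, 83.7 and 53.2 in WT and 48.5, 34.3 and 57.0 in *pde6c*. Cone markers fell in the same samples, and the part of these in the result was not tested. Log2 fold changes of SRF, CREB1 and CREBBP were 0.42 for ENSDARG00000053918, 0.14 and -0.16, with adjusted *P*-values of 0.546, 0.862 and 0.755 in edgeR, and ARNT2, which encodes a partner of Npas4, stood at -0.09 (0.896).

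The list of heat shock genes holds chaperone and heat shock factor genes, some but not all of which stress or the handling of tissue can induce. Of its 16 genes, 14 were tested, 4 rose, 0 fell and 10 did not pass. This is 28.6% called, where 3.69% of all tested genes were called and 1.4% were higher. The median log2 fold change was 0.36. Their summed level was 668 to 884 CPM in WT and 846 to 1154 CPM in *pde6c*, which overlapped. The 4 that rose were hsf1 and HSF2, genes of heat shock factors, hsp70l, an inducible chaperone gene, and BAG3, a co-chaperone gene, with log2 fold changes of 0.88, 0.78, 1.91 and 2.11 and adjusted *P*-values of 0.0352, 0.0891, 0.0396 and 0.0449 in edgeR. hsp70l was at 8.57, 14.8 and 2.22 CPM in WT and 29.2, 42.4 and 24.2 CPM in *pde6c*. These calls were less stable than that of *atf3*: edgeR called 1 heat shock gene without WR1, 2 without WR2 and 0 without PR2 (5 of 14 at an unadjusted *P*-value under 0.05). limma on FPKM called 0 of 13, with 4 at an unadjusted *P*-value under 0.05, and DESeq2 called 3. The share of all tested genes at that unadjusted *P*-value is not given here. Their part in the levels of the 7 immediate early genes was not tested.

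As a description, the genes outside the 7 whose log2 CPM followed their mean profile most closely over the 6 samples were GMEB1 (Pearson r of 0.994), MRPS33 (0.979), BLOC1S6 (0.973), PTK2 (0.971) and CYC1 (0.970), the highest of 13542 genes compared. The 6 points share their libraries, and none of the 5 genes was called. The profile was highest in PR1 at 1.08 and lowest in WR2 at -0.48 (mean of z scores). The 7 genes themselves had r with it from 0.386 for *fosaa* to 0.833 for *junba*. As the profile is their own mean, these r are raised by construction.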

How the data were processed

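Read trimming with Trimmomatic and alignment to GRCz10 with STAR 2.5.3a were done by the authors. They deposited counts per gene, made with featureCounts 1.5.2 over whole gene spans, unstranded, without fragments on several genes or places, and FPKM made with Cufflinks 2.2.1. Counts were tested with edgeR 4.0.16 in R 4.3.3 (filterByExpr, minimum count 10, TMM, quasi-likelihood test of genotype alone, Benjamini-Hochberg over 17242 genes, threshold 0.1). The test was run on counts simulated from its own model and fitted dispersions, which cannot check that model against real counts. A gene that did not pass is not shown to be unchanged. The standard error is the absolute log2 fold change over the square root of F. The deposited FPKM were tested as log2(FPKM + 1) with limma 3.58.1 (trend, values of 1 or more in 3 or more libraries), a scale that understates changes of low genes. Alternatives were DESeq2 1.42.0, its size factors, other filters and pseudocounts, a replicate block, a threshold of 0.05 and leaving out each sample. Names matched 22595 of 25190 genes, often as the symbol of the human counterpart, and a listed symbol was read as all genes that carry it. The 7 genes and the lists were chosen with earlier results of these data known. The rule named every called gene of the transcription factor, effector, upstream and heat shock lists, the 5 most abundant by FPKM of the first pair of these lists, and the 5 genes most like the mean profile. Other list genes were named after their values were seen. Sequences were not used here.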

Additional observations from a re-analysis of the deposited data

Results flagged for a closer look

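NR4A3 in the names table (ENSDARG00000055854), which encodes an orphan nuclear receptor of the *nr4a1* family, had no count in any sample and so entered no count test. Its span on chromosome 16, 27404450 to 27434715, overlaps that of ERP44, and fragments on more than 1 gene were left out of the counts. The same holds for all 689 genes that have no count but an FPKM of at least 1 in every sample. In the FPKM table NR4A3 stood at 4.98, 1.49 and 1.77 in WT and at 21.6, 41.4 and 28.1 in *pde6c*, with each *pde6c* sample above each WT sample. The mean was 2.75 ± 1.94 FPKM (SD, n = 3) in WT and 30.4 ± 10.1 FPKM (SD, n = 3) in *pde6c*. limma on log2(FPKM + 1) gave a difference of 3.14 (SE 0.41) with an adjusted *P*-value of 0.0144, and of 0.0921 with no filter on low values. The part of fragments from ERP44 in these values was not tested.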

How the results depend on the processing

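Of 15 alternatives, the number of called genes among the 7 was 2 in 9 and 1 in the other 6, *atf3* in each: limma on log2(FPKM + 1), on log2(FPKM + 0.1) and with no filter, and leaving out WR3, PR1 or PR2 (range over left-out samples 1 to 2). The call of *nr4a1* was the one lost. The log2 difference of *fosaa* turned positive in the limma fits (0.22, 0.26 and 0.22) and that of *junba* negative (-0.014, -0.015 and -0.014), and that of *npas4a* ran from -0.15 to 0.51 over left-out samples. The other transcription factors held 3 calls over all left-out samples. Each filtered limma fit also called 3, of which 2 were calls of edgeR, and limma with no filter called 2, of which 1 was. The effectors held 4 calls in DESeq2, 1 in limma with no filter and 1 to 3 over left-out samples. Outside the main calls, vgf was called lower in 6 alternatives and GADD45B (ENSDARG00000027744) higher in 2. Upstream activators held 1 call in each limma fit and 2 to 3 over left-out samples, and heat shock genes 0 in each limma fit and 0 to 4. Fewer genes were called in these fits over all genes too. The limma fits called 205 and 181 of 15782 genes, and 64 of 24344 with no filter. With a sample left out, edgeR called from 414 of 17747 to 537 of 17656 genes, where the main fit called 636 of 17242. The cause was not tested. With the replicate number as a block, edgeR called 984 genes instead of 636 and again 2 of the 7. Same-numbered samples correlated at 0.088, 0.043 and 0.035 in their deviations, each higher than with other numbers, but the labels do not say that a number marks a shared batch. Deviations from the mean of a genotype cancel within it, so that positive values for same numbers force lower ones for other numbers. The standard error was 1.17 for klf2a, at 0 to 1.64 CPM, and 0.18 for *fosab*, and the part of depth in this was not tested.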
